A study of Rattus norvegicus with 6 samples.

Results

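The genes described here are those whose symbols begin with Cep, Ift or Bbs followed by a digit, 56 of the 28358 genes in the tables: 34 Cep genes, 14 Ift genes and 8 Bbs genes. They were chosen by name alone. The family was picked for description with results of the spironolactone comparison already known, so its fold changes and adjusted p-values are given as a description and nothing is supported with them. The samples were neuroretinas of male rats aged 14 months of the Goto-Kakizaki strain (GK), which develops type 2 diabetes without obesity, and their RNA was sequenced. All animals had received 1 injection of 5 µL of microspheres of the degradable polymer PLGA into the vitreous 2 months earlier. In the non-loaded group (3 samples) the microspheres held no drug, and in the spironolactone group (3 samples) they carried a 6.2 µg load of spironolactone, which blocks the mineralocorticoid receptor. The labels name no non-diabetic, uninjected or younger group, and no label ties a sample to its own animal. The p-values therefore cover the scatter among these 6 samples, part of which could be technical.

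A primary cilium is a microtubule-based projection that grows from a centriole docked at the cell surface, and the outer segment of a rod or cone is a highly modified primary cilium joined to the cell body by a narrow connecting cilium. Cep genes encode centrosomal proteins, which build, lengthen, link or dock centrioles or form the gate at the base of the cilium. Ift genes encode subunits of the intraflagellar transport trains: IFT-B works with kinesin-2 towards the tip and IFT-A with dynein-2 on the way back. The BBSome, a coat-like complex of Bbs proteins, carries membrane proteins out of the cilium on these trains. Inherited defects in many of these genes cause retinal degeneration, alone or as part of a ciliopathy.

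The upstream sequences are shown first, because RFX factors are known regulators of ciliary genes and CRX of photoreceptor genes. Windows from 250 bases before to 50 bases after the annotated start were taken from RefSeq (GRCr8, the BN/NHsdMcwi reference and not the GK strain). They matched 48 of the 56 members. Ift74 and Ift57 were among those with no entry. For 2 members whose counts are described below, Cep290 (chr7:37196533-37196784, + strand) and Ift81 (chr12:39618372-39618623, + strand), the 250 bases before the start and the first 2 after it read as follows, with capitals marking the RFX core GTTGCC or the CRX core TAATCC on either strand.
Cep290: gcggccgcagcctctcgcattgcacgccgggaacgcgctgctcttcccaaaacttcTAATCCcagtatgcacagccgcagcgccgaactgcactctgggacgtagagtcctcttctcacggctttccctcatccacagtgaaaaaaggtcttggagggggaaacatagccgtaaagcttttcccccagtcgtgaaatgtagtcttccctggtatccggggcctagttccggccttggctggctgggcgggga
Ift81: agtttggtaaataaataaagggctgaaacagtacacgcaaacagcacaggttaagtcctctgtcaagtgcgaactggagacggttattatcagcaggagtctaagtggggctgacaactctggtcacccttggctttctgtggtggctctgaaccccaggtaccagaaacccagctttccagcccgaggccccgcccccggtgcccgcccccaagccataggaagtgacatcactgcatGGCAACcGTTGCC
The Ift81 window held 2 RFX cores, on opposite strands, with first bases at -11 and -4 from the start. The Cep290 window held 1 CRX core, at -194, and no RFX core.

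To show how the same letters lie in other members, 40 bases around an RFX core are given for Ift88 (chr15:35688938-35688977, + strand), Bbs5 (chr3:74818586-74818625, + strand), Cep89 (chr1:97195037-97195076, + strand) and Ift27 (chr7:111635117-111635156, - strand), with the core in capitals.
Ift88: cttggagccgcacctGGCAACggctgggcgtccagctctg
Bbs5: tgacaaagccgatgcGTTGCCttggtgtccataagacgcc
Cep89: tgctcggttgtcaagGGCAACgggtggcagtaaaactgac
Ift27: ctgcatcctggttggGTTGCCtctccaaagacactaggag
The RFX core GTTGCC was present on either strand in 14 of the 48 matched members (29.2%), against 13.2% of 9928 tested genes with a window and 12.2% of all 33469 windows. Facing cores, GTTGCC followed by GGCAAC with 0 to 3 bases between them, were found in 0 of the 48 members and in 0.181% of the 9928 genes. Only these exact letters were searched, so facing sites that differ from them in any base were not counted. The CRX core TAATCC was present in 7 of 48 members (14.6%), against 5.51% of the 9928 genes and 7.17% of all windows. The median GC content of the windows was 59.2% for the members and 61.3% for the 9928 genes. Of the 4 matched members that rose with spironolactone, Ift81 held RFX cores, Cep290 held the CRX core, and Cep126 and Cep57l1 held neither. A match of letters is a description and shows no binding.

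Each library summed to 9996198 to 12589466 expected counts, and the counts of each pair of libraries differed by more than sampling noise (chi-square of 4 to 16 per gene). Pairs within a group were at 4 to 7.12 and pairs across groups at 4.72 to 16, so the ranges overlapped. The closest pair across groups was non-loaded replicate 3 and spironolactone replicate 1. In all, 53 of the 56 members passed the filter on low counts. Rods are the most abundant cells of the rat retina. Of 20 rod marker names, 19 were in the tables, and all 19 passed the filter on low counts. Their level moved with the comparison: 10 of 19 were lower with spironolactone and 0 higher (0.763% and 1.87% of all tested genes), and their summed level was 84000 to 97800 TPM (the deposited level per gene length) in the non-loaded and 68900 to 75600 TPM in the spironolactone libraries. Of other marker lists, 0 of 12 cone genes passed and 2 of 10 Müller glia genes were lower. Of 9 pigment epithelium genes 0 passed, but spironolactone replicate 3 stood apart in some of them. Its Ttr level was 17.7 CPM (counts scaled to library size with TMM factors), against 44.6 to 62.5 CPM in the other libraries, and its Rpe65 level 5.6 CPM, against 10.2 to 17.9 CPM. The summed level of this list was 582 to 602 TPM in the non-loaded and 406 to 591 TPM in the spironolactone libraries, lowest in replicate 3. The part of these cells in the results below was not tested. In bulk tissue, fewer cells of a type and less RNA per cell cannot be told apart.

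Per gene length, BBSome and IFT genes led the family. Bbs4, a BBSome subunit gene, had the highest level at 226 ± 13.2 TPM (SD over 6 libraries, both groups together), followed by Ift172, the largest IFT-B subunit gene, at 197 ± 12.5 TPM, Bbs9 at 146 ± 9.32 TPM, Bbs7 at 135 ± 12.8 TPM and Bbs2 at 93.8 ± 5.78 TPM. The spreads of Bbs9 and Bbs7 overlap, while Bbs2 lay below all 4 in every library. The highest Cep gene was Cep120, which acts in centriole elongation, at 70.3 ± 3.73 TPM, and its spread overlapped those of Ift20 (68.1 ± 4.9 TPM), Ift81 (67.9 ± 9.17 TPM) and Bbs1 (67.6 ± 4.62 TPM). Median levels were 80.7 TPM over the 8 Bbs genes, 45.6 TPM over the 14 Ift genes and 24.6 TPM over the 34 Cep genes. The deposited length behind a level is a model's: Ift172 was scaled by a weighted length of 1880 bases over 4 listed transcripts, and its level depends on that choice.

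**Figure D1:**
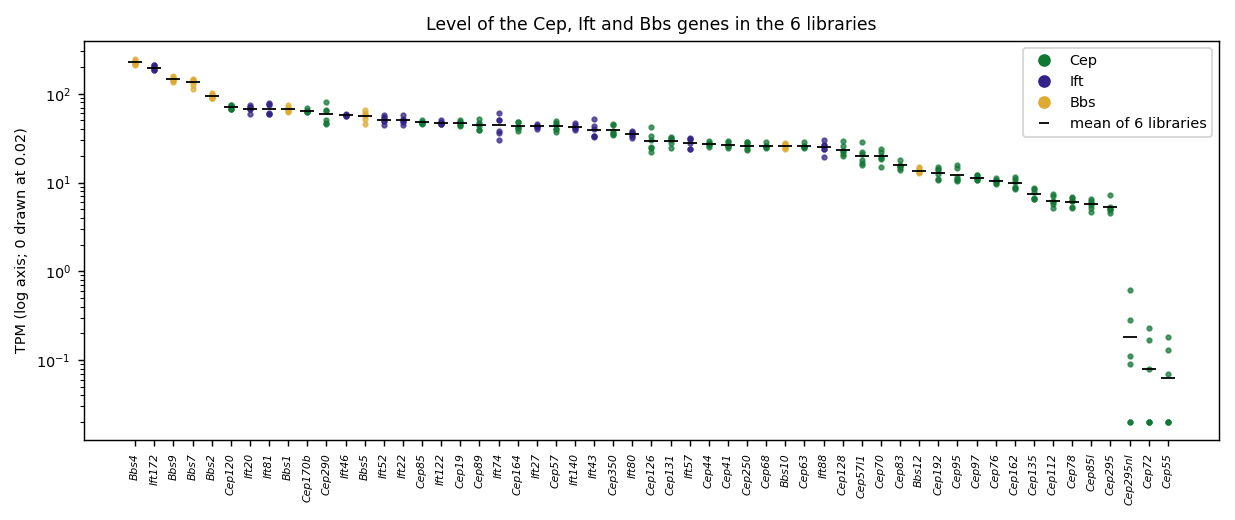
Level of the genes in TPM (log axis, values of 0 drawn at 0.02), ordered by the mean; points are the 6 libraries, black bars their mean and colours the 3 name groups. Bbs4 (226 TPM) and Ift172 (197 TPM) lead, most genes lie between 5 and 100 TPM, and Cep295nl, Cep72 and Cep55 stand below 1 TPM.

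The 6 BBSome subunit genes named Bbs spanned 56.3 TPM (Bbs5) to 226 TPM (Bbs4). The chaperonin-like genes Bbs10 (25.8 ± 1.65 TPM) and Bbs12 (13.6 ± 0.809 TPM), whose products help assemble the complex, lay below these 6. The 3 IFT-A genes were close together at 39.1 TPM (Ift43), 42.3 TPM (Ift140) and 47 TPM (Ift122). The 11 IFT-B genes ranged from 25.2 TPM (Ift88) to 197 TPM (Ift172). The lowest tested Cep genes were Cep295, a centriole gene, at 5.35 TPM, Cep85l at 5.66 TPM and Cep78, a gene of cone-rod dystrophy with hearing loss, at 6.09 TPM.

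Cep55, whose product acts at the midbody when a cell divides, had 0, 1 and 2 counts in the non-loaded and 0, 3 and 0 counts in the spironolactone libraries. Cep72 had 0, 3 and 1 against 2, 0 and 0 counts, and Cep295nl 1, 3 and 1 against 0, 0 and 6 counts. These 3 were under the filter, and the depth was too low to show a difference in them. Of 11 markers of proliferating cells in the tables, 5 were likewise under the filter, with at most 11 counts, and 6 were tested with 0 calls. Over all tested genes 2.63% were called. Of the tested markers, Kif11 was at 60 to 85 counts, Aurka at 33 to 82 counts and Ccnb1 at 27 to 42 counts. The others were low: Plk1 at 9 to 22 counts, Cdk1 at 3 to 14 counts and Bub1 at 3 to 13 counts.

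The comparison asked how the genes of centrosome, transport train and BBSome differed between retinas with spironolactone and with empty microspheres. Of the 53 tested members, 5 rose and 0 fell at an adjusted p of 0.05: Cep290, Ift74, Cep126, Ift81 and Cep57l1, with fold changes of 1.26 to 1.53. This is 9.43% of the members, where 2.63% of all 13242 tested genes were called, 1.87% higher and 0.763% lower. At an unadjusted p of 0.05, 17 members were higher and 0 lower, against 9.52% and 6.32% of all tested genes. The median log2 fold change of the members was 0.09, against 0.00 for all tested genes. The 3 spironolactone libraries lay above all 3 non-loaded libraries for 16 members and below them for 0, where 11.4% of all tested genes were above and 9.48% below. The family was picked with this contrast known, so these shares describe it and test nothing.

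**Figure D2:**
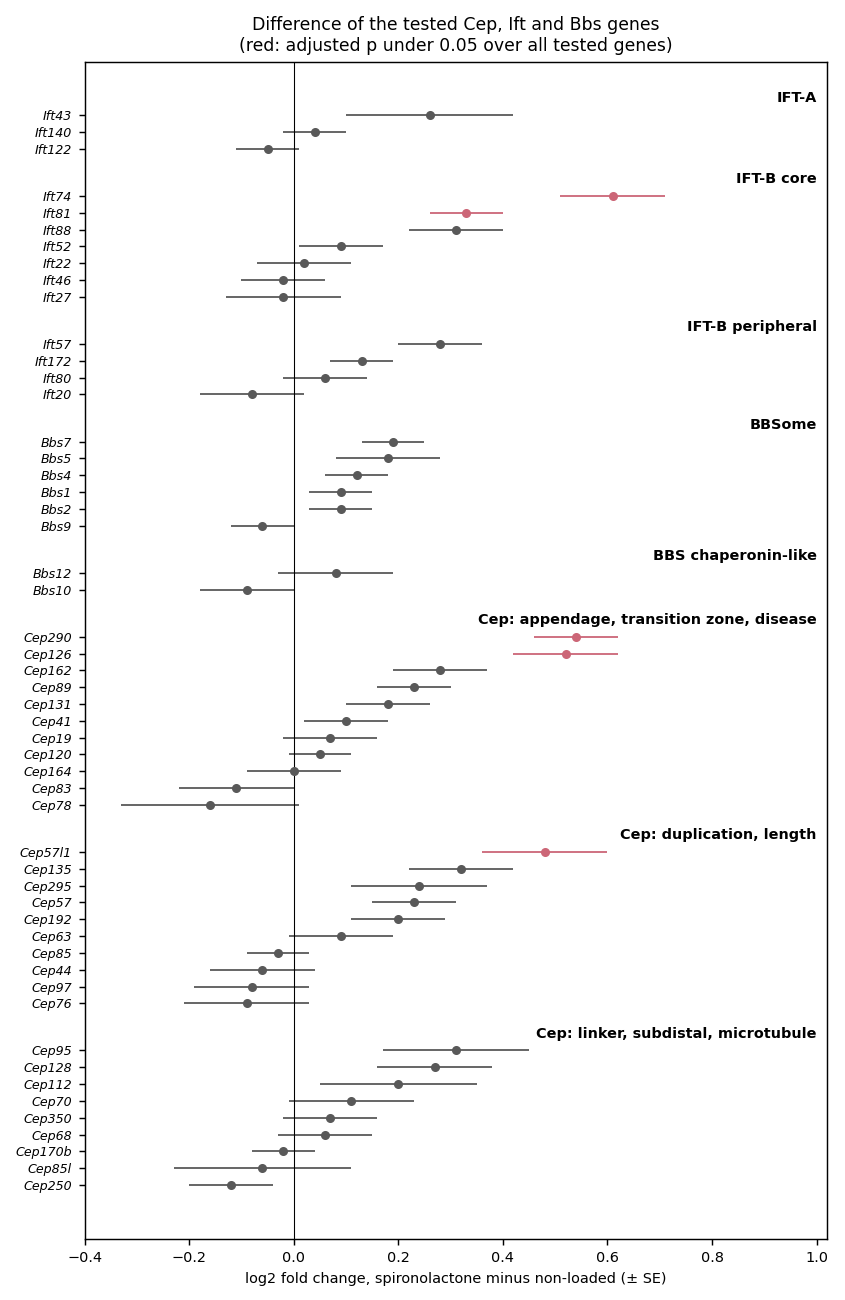
Log2 fold change of the tested members, spironolactone minus non-loaded, with its standard error, by role; red marks the 5 genes that passed. Ift74 (0.61) and Cep290 (0.54) lie farthest to the right, and the lowest value is Cep78 at -0.16.

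Cep290 encodes a large protein of the ciliary transition zone, the gate at the base of the cilium, and inherited defects in the gene cause Leber congenital amaurosis. It measured 204, 214 and 222 CPM in the non-loaded and 279, 293 and 360 CPM in the spironolactone libraries. The groups did not overlap, and spironolactone replicate 3 was the highest. The mean rose from 213 ± 8.76 to 311 ± 43.6 CPM (SD over 3 libraries each). The log2 fold change was 0.54 with a standard error of 0.08, and edgeR's quasi-likelihood test gave an adjusted p of 0.000842. Leaving out each library in turn kept it past the threshold (adjusted p at most 0.0114).

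Ift74 and Ift81 encode partners that form a tubulin-binding module in the IFT-B core. Ift74 measured 32.1, 42.2 and 38.2 CPM against 52.4, 55 and 64.8 CPM. The lowest spironolactone library was above the highest non-loaded one, and the mean rose from 37.5 ± 5.11 to 57.4 ± 6.54 CPM, the largest fold of the family (log2 fold change 0.61 ± 0.10, adjusted p = 0.00307; at most 0.0244 without any 1 library). Ift81 measured 60.9, 64.5 and 59.9 CPM against 73.5, 79.1 and 80.8 CPM. These groups did not overlap either, with a log2 fold change of 0.33 ± 0.07 (adjusted p = 0.0119). The call of Ift81 held in 2 of the 6 fits that left out a library. The adjusted p was 0.062 without non-loaded replicate 1, 0.0607 without non-loaded replicate 3, 0.0905 without spironolactone replicate 2 and 0.0635 without spironolactone replicate 3. Whether the difference of Ift74 exceeds that of Ift81 was not tested.

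Cep126, a centrosomal gene with a role in cilium formation, measured 48.8, 56.6 and 53.5 CPM against 70.2, 67 and 91.8 CPM. The groups were apart, with spironolactone replicate 3 well above the other two, and the log2 fold change was 0.52 ± 0.10 (adjusted p = 0.00872). It did not pass without non-loaded replicate 1 (0.0661), nor on log2(TPM + 1) (0.0994). Cep57l1, a relative of Cep57 that acts in centriole engagement, measured 18.7, 20.4 and 21 CPM against 25.3, 25 and 33.9 CPM (0.48 ± 0.12, adjusted p = 0.0439). Its call rested on most libraries: it passed in 1 of the 6 fits with a library left out, that without spironolactone replicate 1. Spironolactone replicate 3, which had the lowest Ttr and Rpe65 levels, was also the highest library for all 5 members that passed. Without it the log2 fold changes were 0.42 (adjusted p = 0.00132) for Cep290, 0.37 (0.0376) for Cep126 and 0.32 (0.24) for Cep57l1. Those of Ift74 and Ift81 were 0.51 (0.0218) and 0.3 (0.0635). The adjusted p of Cep57l1 was 0.181, 0.113 and 0.0745 when non-loaded replicates 1, 2 and 3 were dropped in turn, and 0.0761 and 0.24 when spironolactone replicates 2 and 3 were.

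**Figure D3:**
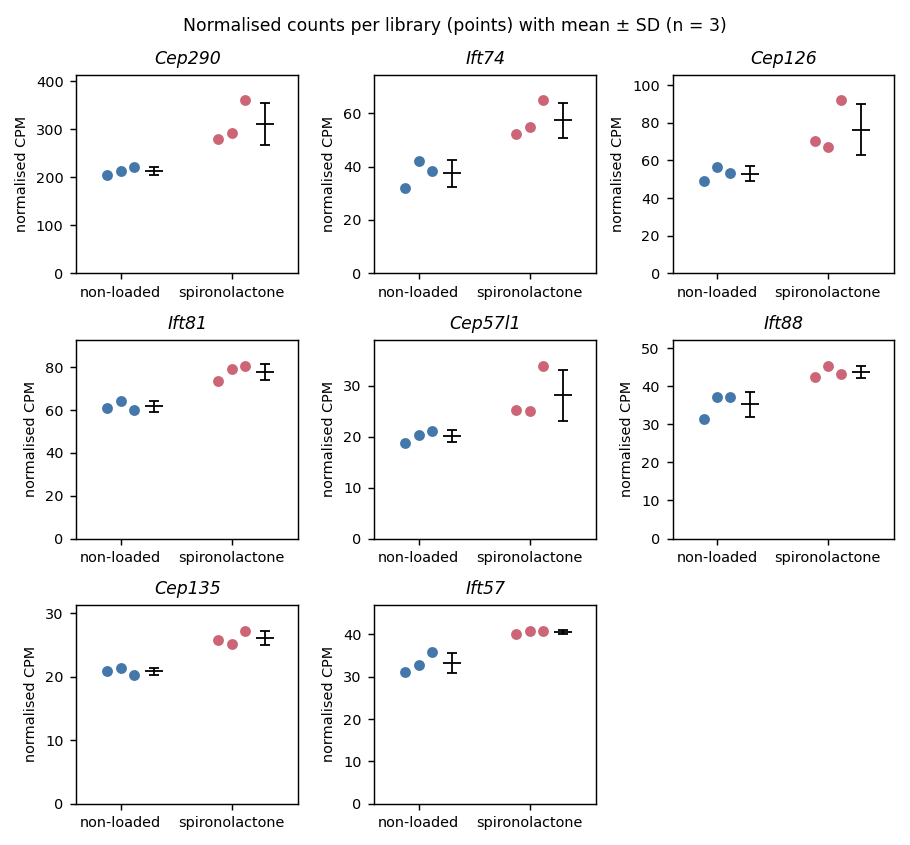
Normalised CPM in each library (points, non-loaded in blue and spironolactone in red) with the mean ± SD of 3 for the 5 genes that passed (Cep290, Ift74, Cep126, Ift81, Cep57l1) and 3 of those with the next smallest p (Ift88, Cep135, Ift57). In all 8 panels the lowest spironolactone point lies above the highest non-loaded point.

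With 3 against 3 libraries a number in the sample titles (2, 3 and 4 in the non-loaded group, 8, 10 and 11 in the spironolactone group) follows the groups closely (r = 0.953), and any factor that goes with this number cannot be told apart from the treatment. With the number as a covariate, 0 members and 0 genes of the table passed in edgeR, and 0 members and 562 genes had an unadjusted p below 0.05. No other tool was run with it.

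Among the remaining IFT-B genes no member passed, and their values split. Ift88, a core subunit whose reduced function in mice causes loss of photoreceptors and cystic kidneys, measured 31.5, 37.2 and 37.1 CPM against 42.3, 45.4 and 43.3 CPM. All 3 spironolactone libraries were higher, and the test gave 0.31 ± 0.09 (adjusted p = 0.0826). Ift57, a peripheral subunit, measured 31.2, 32.8 and 35.7 CPM against 40, 40.7 and 40.8 CPM (0.28 ± 0.08, adjusted p = 0.0936), again without overlap. Ift172 measured 177, 183 and 174 CPM against 194, 193 and 198 CPM (0.13 ± 0.06, adjusted p = 0.259). The other IFT-B genes lay at 0.09 or below on the log2 scale. Ift52 was at 0.09 ± 0.08, Ift80, a gene of skeletal ciliopathy, at 0.06 ± 0.08 and Ift22 at 0.02 ± 0.09. Ift46 (-0.02 ± 0.08) and Ift27, a small GTPase gene (-0.02 ± 0.11), were slightly below 0. Ift20, whose product also works at the Golgi, was at -0.08 ± 0.10. In these 6 the libraries of both groups overlapped. Over the 11 IFT-B genes the median was 0.09, with 2 called higher and 0 lower, and 5 were above and 0 below without overlap. Of all tested genes, 1.87% were called higher and 0.763% lower, and 11.4% were above and 9.48% below without overlap.

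The 3 IFT-A genes had no call. Ift122 measured 90.7, 95.9 and 88.3 CPM against 87.6, 88.6 and 90 CPM (-0.05 ± 0.06, adjusted p = 0.771). Ift140, a gene of syndromic and isolated retinal dystrophy, measured 121, 116 and 125 CPM against 131, 121 and 121 CPM (0.04 ± 0.06, adjusted p = 0.817). Ift43 was the lowest of the 3 in counts and spread most, at 12, 15.4 and 12.2 CPM against 15.7, 19.4 and 12.5 CPM (0.26 ± 0.16, adjusted p = 0.454). The groups overlapped in all 3. Among all tested genes 2.63% were called and 20.9% were without overlap. Whether the IFT-A genes differed from the IFT-B genes was not tested.

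No Bbs gene passed, and 5 of the 6 BBSome subunits named Bbs had a positive value, with a median of 0.10. Bbs7 measured 172, 197 and 197 CPM against 215, 218 and 215 CPM (0.19 ± 0.06, adjusted p = 0.119), the single Bbs gene whose groups did not overlap. For comparison, 2.63% of all tested genes were called, 49.3% had a positive value, and 11.4% lay above and 9.48% below without overlap. Bbs4 measured 274, 292 and 276 CPM against 289, 306 and 319 CPM (0.12 ± 0.06, adjusted p = 0.343). Bbs1, the subunit most often altered in Bardet-Biedl syndrome, was at 0.09 ± 0.06, Bbs2 at 0.09 ± 0.06, Bbs5 at 0.18 ± 0.10 and Bbs9 at -0.06 ± 0.06. The chaperonin-like genes gave 0.08 ± 0.11 (Bbs12) and -0.09 ± 0.09 (Bbs10).

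Of the 12 Cep genes of the distal appendages, the transition zone or ciliary disease, 2 passed (Cep290 and Cep126), and the groups did not overlap in 6, all higher. Over all tested genes 2.63% were called, and 11.4% were above and 9.48% below without overlap. Cep164, which builds the distal appendages that dock the mother centriole, measured 111, 100 and 85.5 CPM against 92, 93.1 and 110 CPM, and its groups covered the same range (0.00 ± 0.09, adjusted p = 0.987). Cep120 (0.05 ± 0.06), Cep19 (0.07 ± 0.09) and Cep41 (0.10 ± 0.08), which takes part in modifying ciliary tubulin, had no call. Cep78 had the lowest value of the family, at 8.4, 8.11 and 7.65 CPM against 8.4, 6.78 and 6.41 CPM (-0.16 ± 0.17, adjusted p = 0.708).

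Of the 10 tested Cep genes of centriole duplication and length, 1 passed (Cep57l1), and the groups did not overlap in 3, all higher. Of all tested genes, 2.63% were called, and 11.4% were above and 9.48% below without overlap. Cep135, a gene of the centriole cartwheel named after its value was seen, measured 20.9, 21.4 and 20.2 CPM against 25.8, 25.1 and 27.2 CPM (0.32 ± 0.10, adjusted p = 0.0924). Cep57 itself measured 51.8, 53.6 and 46.7 CPM against 57.9, 57.7 and 63.2 CPM (0.23 ± 0.08, adjusted p = 0.137). Both were without overlap, whereas Cep85 (-0.03 ± 0.06) and Cep44 (-0.06 ± 0.10) overlapped. Of the 9 tested genes of centrosome linker, subdistal appendages and microtubules none passed. Cep250, the gene of the linker protein C-Nap1, measured 116, 107 and 107 CPM against 94.9, 94.4 and 116 CPM (-0.12 ± 0.08, adjusted p = 0.498). Cep170b (-0.02 ± 0.06) and Cep350 (0.07 ± 0.09) also had no call.

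The whole family took 0.352% to 0.364% of the counts in the non-loaded and 0.385% to 0.409% in the spironolactone libraries. Without the 5 genes that passed, the shares were 0.316% to 0.324% and 0.334% to 0.346%. The median length of the members was 2710 bases, against 2323 for all tested genes. It was 3450 bases for the Cep genes and 3920 bases for the role group that holds Cep290 and Cep126. Across genes, which are not replicates, the Spearman correlation of length with log2 fold change was 0.08 over the 53 members and 0.10 over all tested genes. With each library's length trend removed, Cep290 was at 0.49 and 5 members were called. With the deposited effective lengths as an offset 4 were called, and Cep57l1 did not pass (adjusted p = 0.0531).

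Other genes of the same machinery were taken from lists, and 1.87% of all tested genes were called higher and 0.763% lower. Of 14 IFT and BBS genes with other names, 1 rose: Ttc8, which encodes a BBSome subunit, measured 96.1, 104 and 108 CPM against 113, 132 and 142 CPM (0.33 ± 0.08, adjusted p = 0.0311). All 3 spironolactone libraries were above the non-loaded ones, but the call held in 2 of the 6 fits with a library left out (adjusted p up to 0.17). Wdr35 (0.17 ± 0.07), an IFT-A gene, and the IFT-B genes Cluap1 (0.18 ± 0.07) and Ttc30b (0.21 ± 0.08) did not pass. The median of the 14 was 0.17. Of 13 ciliary motor genes, 1 rose: Wdr60, an intermediate chain of dynein-2, the motor of the return transport, measured 68.7, 77.5 and 73.2 CPM against 90, 91 and 103 CPM (0.37 ± 0.07, adjusted p = 0.00789; 0.06 in the least favourable of the 6 fits with a library left out, in which 5 passed). The median of the 13 was 0.03.

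Of 27 other centrosome genes, 1 rose and 1 fell, with a median of 0.16, and 10 were above and 1 below without overlap. Of all tested genes, 1.87% were called higher and 0.763% lower, and 11.4% were above and 9.48% below without overlap. Sclt1, a distal appendage gene, measured 24.5, 26.6 and 28.3 CPM against 32.1, 32.9 and 39.4 CPM (0.39 ± 0.10, adjusted p = 0.0487, passing in 1 of the 6 fits with a library left out). Cetn2, a centrin gene of the centriole lumen and connecting cilium, fell from 68.1, 69.8 and 66.9 CPM to 60, 50.3 and 50.7 CPM (-0.35 ± 0.08, adjusted p = 0.0231, passing in 2 of 6). Pcm1, the scaffold gene of the pericentriolar satellites, was just outside at 0.27 ± 0.07 (adjusted p = 0.0508), and Akap9 (0.34 ± 0.09, 0.0673) and Poc5 (0.30 ± 0.08, 0.0667) also did not pass. Of 26 transition zone genes 0 passed, with a median of 0.07. The smallest p-values there belonged to Spata7 (0.34 ± 0.09, adjusted p = 0.0613), Tmem67 (0.28 ± 0.08, 0.0697) and Rpgrip1 (0.25 ± 0.09, 0.153), of which Spata7 and Rpgrip1 encode proteins of the photoreceptor connecting cilium. The 10 genes of lipidated cargo and small GTPases had 0 calls and a median of 0.00, and 2 were above and 3 below without overlap. The 5 tested transcription regulators, RFX genes, had 0 calls and a median of -0.08.

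**Figure D4:**
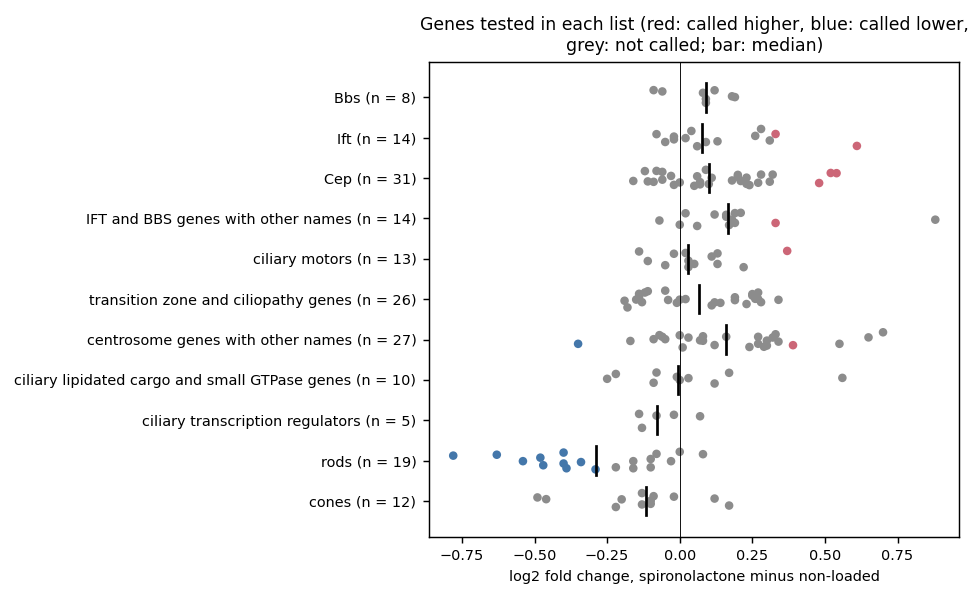
Log2 fold change (spironolactone minus non-loaded) of each tested gene in the 3 name groups, the 6 lists of related genes and the rod and cone markers; red and blue points passed higher and lower, grey did not, and the bar is the median. The medians of the Bbs, Ift and Cep genes lie at 0.09, 0.08 and 0.10, those of rod and cone markers at -0.29 and -0.12.

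Ciliary genes can also come from cells with motile cilia, which have axonemal genes that primary cilia lack. Of 10 markers of such cells, 5 were tested, and Ccdc39, which sets the axoneme's repeat, rose from 13.7, 13.5 and 14 CPM to 20.8, 19.2 and 22.2 CPM (0.59 ± 0.11, adjusted p = 0.00785). The other tested markers did not pass, Rsph4a had 0 counts in all 6 libraries, and Dnah5, Rsph1 and Tekt1 had at most 12 counts. The summed level of the list was 13.6 to 14.4 TPM in the non-loaded and 17.2 to 20 TPM in the spironolactone libraries. Most of this difference was Ccdc39, with means of 8.31 and 12.8 TPM. Means were 1.73 and 2.03 TPM for Dnai1, 0.603 and 0.547 TPM for Dnah11, and 0.977 and 0.923 TPM for Tekt1. Over all tested genes, 1.87% were called higher and 0.763% lower. The part of such cells in the results was not tested.

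A separate measure in the deposited tables is the length of each gene weighted by the estimated abundance of its transcripts, which shifts when the mix of transcripts shifts. Of the 53 tested members, 22 list several transcripts, and for 6 of them the weighted lengths of the groups did not overlap (27.3%), against 9.82% of 4116 tested genes with several transcripts. Cep63, a centriole duplication gene, measured 2154, 2168 and 2149 bases in the non-loaded and 2218, 2217 and 2216 bases in the spironolactone libraries. The 3 spironolactone values were nearly equal and all longer, while its total counts were similar (0.09 ± 0.10). Cep350 was also longer, at 5815, 5706 and 5893 against 5949, 5988 and 6015 bases. Cep164 was at 4335 bases in each non-loaded library and at 4306, 4282 and 4311 bases with spironolactone. Cep295 (mean 7642 against 7556 bases) and Cep85 (3980 against 3944 bases) were shorter too. The Cep290 means, 8258 and 8256 bases, differed by 0.02%. These are estimates without their own error, and 3 against 3 values cannot reach an exact permutation p below 0.1, so no test is given.

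**Figure D5:**
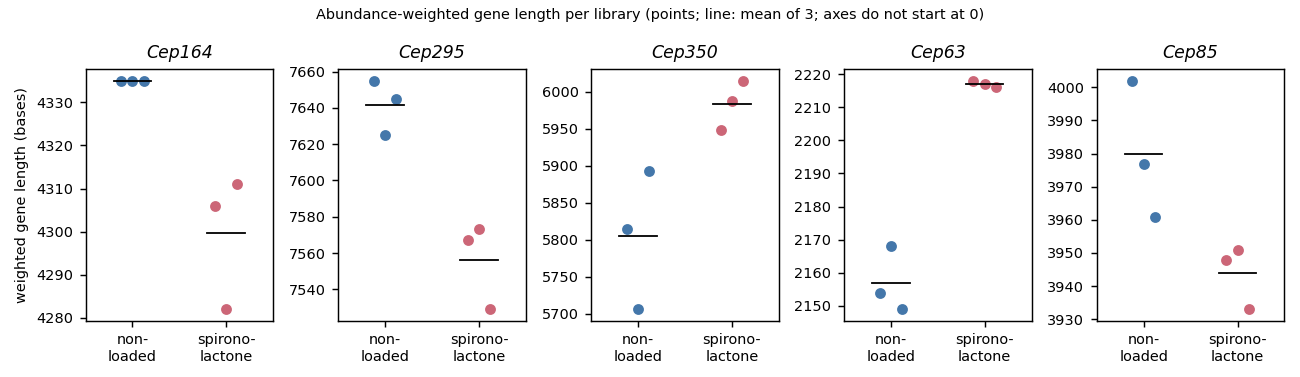
Abundance-weighted gene length in bases in each library (points; line, mean of 3) for 5 members with several transcripts whose groups did not overlap; the axes do not start at 0, and Cep290, which differed by 0.02%, is left out. Cep350 and Cep63 were longer and Cep164, Cep295 and Cep85 shorter with spironolactone.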

How the data were processed

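RNA from the neuroretina was sequenced in 6 samples, 3 per group; the labels' treatment field gave the groups, and no batch was labelled. FastQC, Trimmomatic, STAR 2.5.3a, RSEM 1.2.28 and rn6 are named in the submitters' processing notes without roles; the annotation used and whether counting was stranded are not stated in these sources, so reads of overlapping or antisense genes may not have been separated. Per the file headers, the authors deposited RSEM gene tables with expected counts, which are not normalised, TPM, and gene and effective lengths in bases (used as other values). Expected counts were rounded. Genes were kept with filterByExpr (13242 of 28358; 99.9% of counts) and tested with edgeR 4.0.16 (TMM, glmQLFit, glmQLFTest, two-sided) in R 4.3.3, adjusted by Benjamini-Hochberg over all tested genes, threshold 0.05. The standard error is the size of the log2 fold change over the square root of F. The test was also run on simulated counts drawn from its own fitted spread, with independent libraries. Such counts hold no factor that follows the groups, so this run says nothing about one. Alternatives used DESeq2 1.42.0, limma 3.58.1, other scalings, filters, length offsets and left-out libraries. A pseudocount of 1 or 0.1 was added to TPM before log2, which understates folds of low genes.

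The members and gene lists were chosen with earlier results of these data known. Named members are those called, the 3 with the highest TPM per role, those with the 5 smallest and 3 largest p-values, those under the filter, and fixed disease genes; of other lists, called genes and up to 3 more with the smallest p. Cep63, Cep85l, Cep89, Cep135, Cep295 and Ift22 fall outside this rule and were named after their values were seen. Some items covered by this rule or by the lists are not reported here; counts over groups include them.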

Additional observations from a re-analysis of the deposited data

How the results depend on the processing

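No paired analysis was possible because the replicate numbers were given in accession order and pair nothing. The count of members called higher (5) was 3 on log2(TPM + 1) and on log2(TPM + 0.1) with limma, 9 at an adjusted p of 0.1 and 2 to 7 with a library left out; 0 members were called lower in any fit. Over all genes 247 were higher and 101 lower. Without the filter these were 439 and 163, on log2(TPM + 1) 82 and 18 (82% higher, against 71% in the main test), on log2(TPM + 0.1) 79 and 16 (83.2% higher), at an adjusted p of 0.1 416 and 177, and with a library left out 81 to 421 and 30 to 200. With the title number as a covariate, added after seeing the data, 0 genes of either direction and 0 members passed, the members' median was 0.01 in place of 0.09, and Cep290 (-0.11), Ift74 (-0.06), Cep126 (-0.13) and Cep57l1 (-0.27) turned negative; number and group cannot be told apart. With a library left out the median was 0.08 to 0.14. Cep290, Ift74 and Ift81 passed in all 11 other planned fits, Cep126 in 9 and Cep57l1 in 7. Of the members near 0, Cep164 was 0.00 with voom, 0.03 on both TPM scales and 0.01 with the length offset, Cep85 and Ift46 were 0.00 on both TPM scales, and with a library left out signs also turned for Cep164 (-0.10 to 0.08), Cep170b (-0.07 to 0.02), Cep350 (-0.04 to 0.19), Ift140 (0.00 to 0.06), Ift20 (-0.13 to 0.01), Ift27 (-0.08 to 0.03) and Ift46 (-0.05 to 0.01).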
